A study of Mus musculus with 2 samples.

Results

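H3K27me3 at the genes of the tumour necrosis factor (TNF) ligand and receptor superfamily was examined in mouse sciatic nerve. The members were all RefSeq protein-coding genes whose symbol is Tnfsf (ligand) or Tnfrsf (receptor) followed by a number and at most 1 letter. They numbered 31 of 21887 protein-coding genes, 11 ligands and 20 receptors. A gene was counted as having a peak when a deposited peak overlapped its annotated span or the 2 kb on either side by at least 1 bp.

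The study mapped this mark, trimethylation of histone H3 at lysine 27, by ChIP-seq (sequencing of immunoprecipitated chromatin) in freshly dissected sciatic nerve of male C57/BL6 mice at 8 weeks, with 1 ChIP library and 1 input library. No genotype or treatment is labelled, and how many animals were pooled is not labelled either. The nerve holds Schwann cells, fibroblasts, vessels, immune cells and axons, so the number of cells that carry the mark and the amount per cell cannot be told apart. There were no replicates, so every value describes 1 library and carries no p-value.

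TNF superfamily ligands are mostly trimeric proteins of the cell surface, some of them also released, and their receptors are membrane proteins with cysteine-rich repeats outside the cell. Receptors signal through TRAF adaptors to NF-kB or, where they hold a death domain, to cell death. Many members control activation and survival of lymphocytes, others bone resorption, skin appendages or the nervous system. H3K27me3 is written by a Polycomb repressive complex, is found over silent or weakly expressed genes, and in mammals lies mostly at CpG-rich DNA.

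Of the 31 members, 5 had a peak (16.1%, exact 95% Clopper-Pearson interval 5.45 to 33.7), against 10.5% of all protein-coding genes. The family's interval holds the share of all genes, so the family was not told apart from it at this number of genes. The same 5 genes were counted when windows were limited to 2 kb around the annotated ends, against 8.59% of all genes. The genes with a peak were the ligand Tnfsf11 and the receptors Tnfrsf8, Tnfrsf12a, Tnfrsf19 and Tnfrsf25. Together they had 7 peaks with 126 of the 185225 reads in all peaks. The median of these 7 peaks, 14 reads, equalled that of the 6018 peaks, and their median width was 629 bp against 643 bp.

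The bases before the starts of 4 of these genes, and of Tnfrsf11a for contrast, are shown because they place the peaks beside CpG content, which the choice of members did not use. Each run gives the 250 bases upstream of an annotated start, 5′ to 3′ on the transcribed gene's sense strand, from RefSeq (GRCm38.p6), with every CG dinucleotide in capitals. The genes shown were picked after their values were seen. Tnfrsf19 has 2 starts in the promoter table.
Tnfsf11, chr14:78308044-78308293, minus strand: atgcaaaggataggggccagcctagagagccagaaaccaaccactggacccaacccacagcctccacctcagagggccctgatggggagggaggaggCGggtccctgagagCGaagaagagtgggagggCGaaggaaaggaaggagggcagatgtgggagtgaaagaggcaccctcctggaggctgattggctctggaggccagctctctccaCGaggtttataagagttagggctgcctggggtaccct
Tnfrsf11a, chr1:105780473-105780722, plus strand: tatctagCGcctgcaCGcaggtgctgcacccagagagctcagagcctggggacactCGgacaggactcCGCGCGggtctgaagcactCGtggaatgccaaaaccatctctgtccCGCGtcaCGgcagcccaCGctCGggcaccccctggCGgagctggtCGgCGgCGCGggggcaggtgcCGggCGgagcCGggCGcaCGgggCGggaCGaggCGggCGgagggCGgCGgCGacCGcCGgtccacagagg
Tnfrsf19, upstream start, chr14:61046856-61047105, minus strand: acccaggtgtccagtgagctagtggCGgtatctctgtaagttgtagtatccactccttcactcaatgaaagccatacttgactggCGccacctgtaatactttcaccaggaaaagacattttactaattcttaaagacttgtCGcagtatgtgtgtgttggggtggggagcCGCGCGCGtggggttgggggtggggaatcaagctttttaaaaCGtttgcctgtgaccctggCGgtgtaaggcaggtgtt
Tnfrsf19, downstream start, chr14:61037988-61038237, minus strand: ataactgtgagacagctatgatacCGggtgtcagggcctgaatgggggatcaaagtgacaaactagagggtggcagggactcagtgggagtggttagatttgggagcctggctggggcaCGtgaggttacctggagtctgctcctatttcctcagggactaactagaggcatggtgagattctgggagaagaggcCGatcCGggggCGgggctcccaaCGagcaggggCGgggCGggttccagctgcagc
Tnfrsf8, chr4:145315165-145315414, minus strand: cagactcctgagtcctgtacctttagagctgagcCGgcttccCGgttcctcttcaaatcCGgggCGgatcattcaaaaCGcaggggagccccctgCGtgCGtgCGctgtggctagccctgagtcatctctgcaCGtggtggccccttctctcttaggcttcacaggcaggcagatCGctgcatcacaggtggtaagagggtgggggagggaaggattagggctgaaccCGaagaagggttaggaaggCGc
Tnfrsf12a, chr17:23677450-23677699, minus strand: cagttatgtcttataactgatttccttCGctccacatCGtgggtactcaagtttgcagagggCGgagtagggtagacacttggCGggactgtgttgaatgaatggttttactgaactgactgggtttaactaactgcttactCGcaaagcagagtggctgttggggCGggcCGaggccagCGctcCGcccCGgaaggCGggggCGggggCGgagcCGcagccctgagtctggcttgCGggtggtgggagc
The peak at Tnfsf11 covered 130 of the 250 bases shown, and the peak at Tnfrsf8 covered 176. The other 4 runs held no peak.

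**Figure D1:**
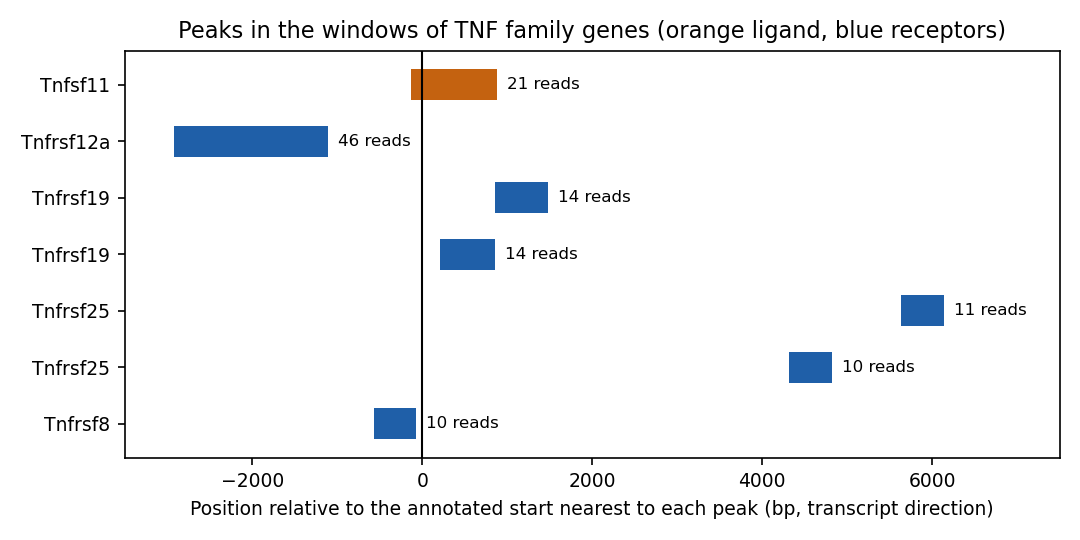
Position of each of the 7 peaks relative to the annotated start nearest to it, in bp along the transcript, with the reads per peak; the orange bar is the ligand and the blue bars are receptors. The Tnfsf11 peak crosses the start, the Tnfrsf8 and Tnfrsf12a peaks lie upstream, and the Tnfrsf25 peaks lie over 4 kb downstream.

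Among the ligands, Tnfsf11 had a peak. It encodes RANKL, the cytokine that drives osteoclast formation. The gene lies on chromosome 14 (78277446 to 78308043, mm10, minus strand), and its peak (78307166 to 78308173, 1008 bp) ran from 130 bp upstream of the annotated start to 877 bp into the gene. It held 21 reads (exact 95% Poisson interval 13.0 to 32.1), and 34.0% of all peaks held as many or more. Peaks covered 2.87% of the gene's span, and no other peak was called in the gene or its flanks. Tnfsf11 was the member that kept a peak under every setting tried.

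Neither receptor of RANKL had a peak. Tnfrsf11a, which encodes the signalling receptor RANK, lay 4133389 bp from the nearest peak, the longest such distance among the 31 members. Its 300-base promoter held 43 CG dinucleotides, the most among the 24 members in the promoter table. Tnfrsf11b, which encodes osteoprotegerin, the secreted decoy receptor, lay 292850 bp from one.

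Tnfrsf19 had 2 peaks, both inside the gene and each just past an annotated start. It encodes TROY, a receptor of developing nervous system and skin that can act with the Nogo receptor to limit axon growth. The gene lies on chromosome 14 (60963834 to 61046855, minus strand) and spans 83022 bp, the longest of the 31 members. One peak of 629 bp (61045376 to 61046004) began 851 bp downstream of the upstream start. The other, 652 bp wide (61037132 to 61037783), began 204 bp downstream of the second start. Each held 14 reads (7.65 to 23.5), the median of all peaks. Peaks thus covered 1.54% of the span, near both starts.

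Tnfrsf8 and Tnfrsf25 rested on peaks at or near the lowest read number in the list. Tnfrsf8 encodes CD30, a receptor of activated lymphocytes, on chromosome 4 (145267132 to 145315164, minus strand). Its single peak (145315239 to 145315738) lay 75 to 574 bp upstream of the start, with 10 reads (4.80 to 18.4). No peak in the list held fewer reads. Tnfrsf25 encodes the death receptor for TL1A, on chromosome 4 (152115528 to 152120119, plus strand). Its peaks lay past its 3′ end, by 540 bp with 10 reads (152120659 to 152121158) and by 1857 bp with 11 reads (152121976 to 152122475). Both lay inside the neighbouring gene Espn, which encodes an actin-bundling protein, so they mark Tnfrsf25 by nearness alone.

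Tnfrsf12a had the member peak with the most reads, and that peak lay over another gene's start. Tnfrsf12a encodes Fn14, the receptor of the cytokine TWEAK, and lies on chromosome 17 (23675445 to 23677449, minus strand). The peak (23678556 to 23680373) was 1818 bp wide, held 46 reads (33.7 to 61.4) and began 1107 bp upstream of the Tnfrsf12a start. It ran from 809 bp upstream to 1008 bp downstream of a start of Cldn6, a claudin gene transcribed the opposite way. No base of the Tnfrsf12a span was covered. When a peak was counted only for the gene nearest its centre, a setting added after the data were seen, Tnfrsf12a and Tnfrsf25 lost theirs. The count of members with a peak was then 3, or 9.68% of 31, against 10.1% of all genes.

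**Figure D2:**
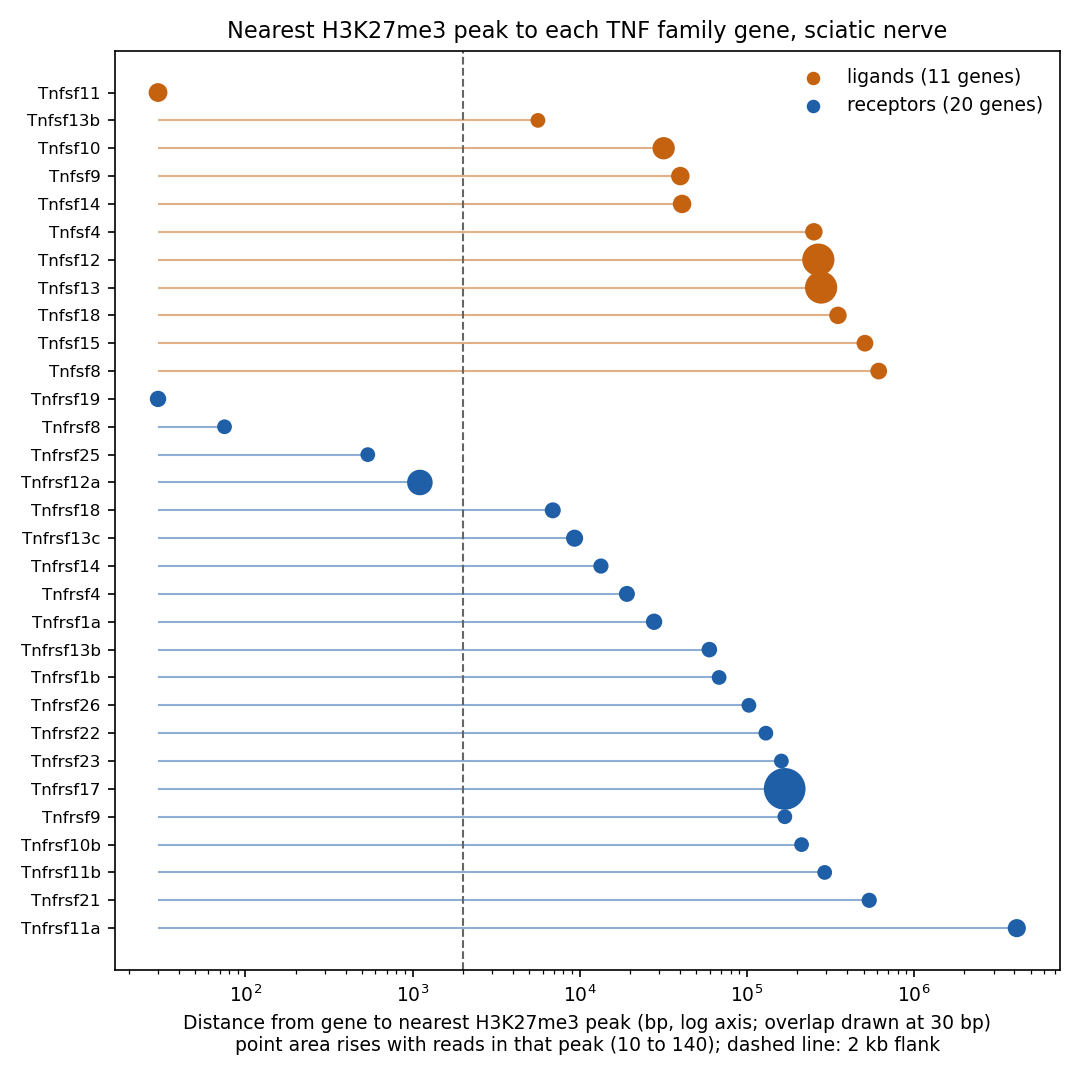
Distance in bp, on a log axis, from each of the 31 genes to its nearest H3K27me3 peak, ligands above and receptors below, with point area rising with the reads in that peak. The dashed line marks 2 kb: Tnfsf11 and 4 receptors sit left of it, and Tnfrsf11a sits furthest right.

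No member had its nearest peak close to the edge of the 2 kb flank on the outer side. The furthest peak that counted as the nearest of its gene was that of Tnfrsf12a at 1107 bp, and the closest that did not count lay 5631 bp from Tnfsf13b. Flanks of 5 kb therefore gave the same 5 genes. Of the 31 members, 14 had a peak within 50 kb (45.2%) against 25.5% of all protein-coding genes, and 16 within 100 kb (51.6%) against 35.5%. The median distance to a peak was 68369 bp for members and 205421 bp for all genes. Neighbouring members share surroundings, so these counts are not 31 independent values.

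The members without a peak are given here by their distance to the nearest one, and the groups they are named in were made for description only. Among genes of B-cell survival signals, Tnfsf13b, which encodes the B-cell survival factor BAFF, lay 5631 bp from a peak of 10 reads, and Tnfsf13, which encodes APRIL, lay 278799 bp from one. Tnfrsf13c, the BAFF receptor gene, lay 9332 bp from a peak of 16 reads. Tnfrsf13b (TACI) lay 59775 bp away and Tnfrsf17 (BCMA) 168732 bp away.

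Among ligand genes that costimulate T cells, Tnfsf4, Tnfsf8, Tnfsf15 and Tnfsf18 lay 252307, 616526, 509924 and 351526 bp from the nearest peak. Tnfsf9 and Tnfsf14 lay 40060 and 41030 bp from the same peak, which is inside Cd70, the ligand gene between them on chromosome 17. Among the receptors, Tnfrsf4 and Tnfrsf18, the neighbouring genes of OX40 and GITR, lay 19190 and 6909 bp from a peak of 13 reads. Tnfrsf14 (HVEM) lay 13416 bp from its nearest peak and had 7 peaks within 50 kb, the most of any member. Tnfrsf9 lay 169099 bp away.

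The TNF receptor genes Tnfrsf1a, which most cell types express, and Tnfrsf1b lay 27907 and 68369 bp from one. Tnfsf10, the ligand gene of TRAIL, lay 31844 bp from a peak of 33 reads, and its death receptor gene Tnfrsf10b 212927 bp from one. Tnfrsf22 and Tnfrsf23, which encode TRAIL-binding decoys, and the adjacent Tnfrsf26 lay between 103078 and 161200 bp from a peak on chromosome 7. Tnfsf12, which encodes TWEAK, lay 268255 bp away, and Tnfrsf21, which encodes a death receptor studied in axon pruning, 540967 bp away.

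Receptors had a peak more often than ligands by count, but the difference was small beside its error. Of 20 receptors, 4 had one (20%, 5.73 to 43.7), and of 11 ligands, 1 did (9.09%, 0.230 to 41.3). The difference was 10.9 percentage points, with a 95% interval (Newcombe, treating genes as independent) of -20.1 to 33.8. It was -4.09 points when flanks were left out or when peaks needed at least 20 reads, so the direction depends on those settings. With peaks at or above the median score, or counted only for their nearest gene, the difference was 0.909 points. With 11 ligands and 20 receptors a difference of this size was not detectable. Median gene length differed little, with a span of 20460 bp for ligands and 18550.5 bp for receptors against 17169 bp for all genes. The longest spans did differ, at 30598 bp for ligands and 83022 bp for receptors. By length of span, a peak was met by 6.71% of genes under 5 kb, 9.53% at 5 to 20 kb, 9.01% at 20 to 50 kb, 12.8% at 50 to 100 kb and 22.0% over 100 kb.

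Of 15 known ligand and receptor pairs among the members, which leave out the TRAIL decoys Tnfrsf22 and Tnfrsf23, 0 had a peak at both partners, which allows up to 20% of pairs (3 counts of the total). In 3 pairs the receptor alone had one (Tnfrsf8 without Tnfsf8, Tnfrsf12a without Tnfsf12, Tnfrsf25 without Tnfsf15). In 2 pairs the ligand alone did, both of them pairs of Tnfsf11, and in 10 neither did. The pairs share genes, and with 1 ligand gene holding a peak only pairs of Tnfsf11 could have had both, so nothing is read from this count.

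By median, the promoters given for ligands held fewer CG dinucleotides than those given for receptors. The RefSeq promoter table, which gives 250 bases before to 50 after a start, held 28 promoters of 24 members. These were 8 of the 11 ligands, without Tnfsf4, Tnfsf9 and Tnfsf12, and 16 of the 20 receptors. The 9 ligand promoters held between 3 and 9 CG, with a median of 6, so 0 of 9 reached 10, which allows up to 33.3% (3 counts of the total). The 19 receptor promoters held between 2 and 43, with a median of 12, and 11 of them reached 10. Over all 21263 protein-coding promoters the median was 13 and the quartiles were 4 and 24. The ranges of ligands and receptors overlapped, and promoters of 1 gene can overlap each other.

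A peak lay within 2 kb of 5 of the 28 starts (17.9%), those of Tnfsf11, Tnfrsf8, Tnfrsf12a and both of Tnfrsf19, against 7.08% of all starts. The 7 members for which no promoter was given all lacked a peak, so the 28 starts leave out only members without one. Tnfrsf19 was counted with both of its starts, so the 5 starts belong to 4 genes. The CG counts were 7 for Tnfsf11, 15 for Tnfrsf8, 20 for Tnfrsf12a, and 14 and 13 for the upstream and downstream starts of Tnfrsf19. Of these 5 starts, 4 had at least 10 CG (80%), near the 77.5% of all promoters within 2 kb of a peak. Of all 28 member promoters, 11 did (39.3%), against 56.75% of all promoters. The 21 promoters of members with no peak had a median of 6, and ranged from 2 to 43. Over all promoters, the share with a start within 2 kb of a peak was 1.74% at 0 to 4 CG, 7.40% at 5 to 9, 11.3% at 10 to 19, 8.97% at 20 to 29 and 8.44% at 30 or more. Peaks overlapped the 300-base window itself in 2 member promoters (7.14%), Tnfsf11 and Tnfrsf8, against 4.42% of all promoters.

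**Figure D3:**
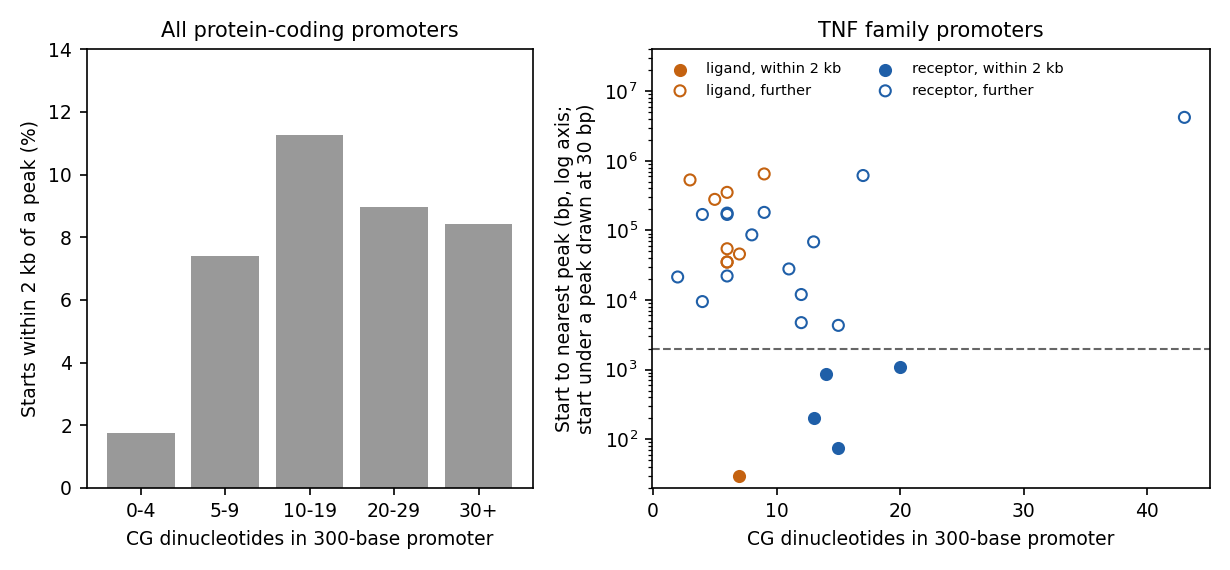
Left, bars give the share in percent of all protein-coding starts within 2 kb of a peak, by the number of CG dinucleotides in the 300-base promoter. Right, each point is 1 of 28 family promoters, with its CG count against the distance in bp (log axis) from its start to the nearest peak; filled points lie within 2 kb, and the 5 of them hold between 7 and 20 CG.

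Short motifs did not set the family's promoters apart by share. The letters GGGNNNNNCC, a loose form of the NF-kB site, were searched on both strands with overlapping matches allowed and occurred in 15 of 28 member promoters (53.6%), against 57.0% of all. TATAAA, on both strands, occurred in 4 of 28 (14.3%), against 12.6%. Among genes with a peak, Tnfsf11, Tnfrsf8 and both starts of Tnfrsf25 held GGGNNNNNCC on both strands, Tnfrsf12a on 1 strand and neither start of Tnfrsf19 on any. A match is a string of letters and not a measured site.

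Family genes with other symbols carried peaks with as few reads. Of 7 other ligand genes, 2 had a peak. Lta, the lymphotoxin gene, had 10 reads in a 500 bp peak inside the gene, and Cd70 had 20 reads in one of 627 bp. Tnf itself lay 2358 bp from the Lta peak, just outside its window, and Ltb lay 8060 bp from it. Fasl, Cd40lg and Eda had no peak. Of 8 other receptor genes, 3 had a peak. Edar, the ectodysplasin receptor gene of hair and gland development, had 29 reads in 2 peaks inside the gene, away from its ends. Cd40 had 22 reads in 2 peaks, and Ngfr, the p75 neurotrophin receptor gene that Schwann cells express after injury, had 20 reads in 2. Fas, Cd27, Ltbr, Eda2r and Relt had no peak.

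With these genes added, 10 of 46 family genes had a peak (21.7%, 11.0 to 36.4), 3 of 18 ligands (16.7%) and 7 of 28 receptors (25%). The lower bound for the 46 genes, 10.95%, lay just above the share of all genes, 10.5%. That bound lay just below the share of autosomal genes, 11.07%, but the sets are unlike. The 46 genes include Cd40lg, Eda and Eda2r on chromosome X, all without a peak, so nothing is read from the autosomal comparison. When a peak counted only for its nearest gene, 8 of 46 had one (17.4%, 7.82 to 31.4). The lower bound then lay below the 10.1% of all genes under that setting. The lists were drawn up with results for some of their genes known, and Ngfr in particular, so this is no independent support.

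Of 30 downstream signalling genes for TRAF adaptors, death domain adaptors, kinases, inhibitors and NF-kB subunits, 2 had a peak (6.67%, 0.818 to 22.1). The interval holds the 10.5% of all genes, so this list was not told apart from them. They were Ripk3, a kinase of necroptosis, with 14 reads in a 500 bp peak from 111 bp downstream of its start, and Edaradd, the adaptor gene of the ectodysplasin receptor, with 12 reads. None of Traf1 to Traf6, and none of the NF-kB subunit genes Nfkb1, Nfkb2, Rel, Rela and Relb, had a peak.

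**Figure D4:**
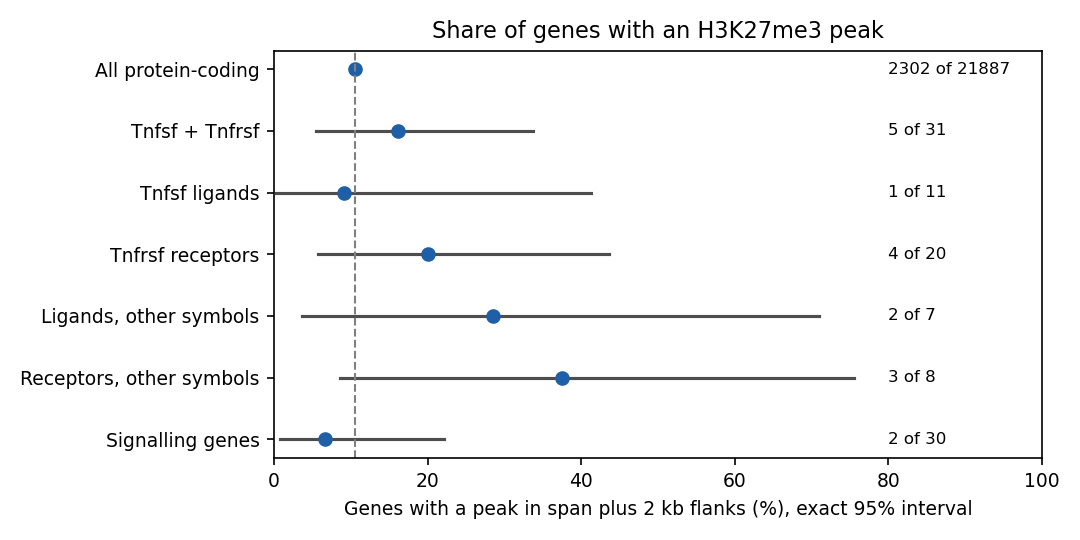
Share of genes with a peak in their span plus 2 kb flanks, in percent, with exact 95% intervals, for all protein-coding genes, the members, their ligands and receptors, ligands and receptors with other symbols, and signalling genes. The dashed line is the share of all genes, which the intervals of these 6 lists cross; the 46 family genes together, whose interval lies above it, are not drawn.

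RNA was not measured, so the tissue label could not be checked by expression. Among Schwann cell marker genes, Sox10 had a peak of 11 reads and Egr2 one of 18 reads. Of 12 macrophage, T cell and B cell markers, 2 had a peak of 10 reads each, Itgam and Cd3e (16.7%, 2.09 to 48.4). Of 5 fibroblast and endothelial markers, Pdgfra did, with 68 reads (20%, 0.505 to 71.6). Both intervals hold the 10.5% of all genes, so neither list was told apart from them. What part each cell type has in the peaks at the TNF family was not tested.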

How the data were processed

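The data were 1 deposited list of 6018 H3K27me3 peaks from 1 ChIP library. Per the submitters' processing notes, the authors used Bowtie and build mm10. The peak caller, its threshold and its use of the input were not given in the sources used here, and input values were not analysed here. Each peak has a score deposited by the authors, whose meaning is not stated. All but 1 score (99.98%) lay within 0.05 of a whole multiple of 2.5735, and the multiple was read as a number of reads, with 10 as the lowest. For 10 reads the exact Poisson limits (95%) are 4.80 and 18.4. Intervals cover counting error only.

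Gene spans came from a RefSeq table of GRCm38.p6, the same assembly as mm10. Starts, strands and promoter sequences came from a RefSeq promoter table that held 24 of the 31 members. Peak positions are 1-based. Overlaps were computed in Python 3.11.15 (scipy 1.17.1) with code tested on simulated peaks. With 1 library no p-value was computed. Every member was named, as were listed genes with a peak and genes overlapping a member's peak. Some listed genes with no peak were also named, chosen after their values were seen. 1 marker gene is not reported here. The members, lists and pairs were chosen with earlier results of these data known. Alternatives varied the flank, the peak threshold, the overlap, the chromosomes and the gene a peak counts for.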

Additional observations from a re-analysis of the deposited data

How the results depend on the processing

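The count of 5 members with a peak held with 5 kb flanks, with windows at the annotated ends alone, with at least 500 bp covered and with autosomes only. It was 2, of which 1 was a receptor, without flanks and again with peaks of at least 20 reads. That was 6.45% of members, against 9.77% of all genes without flanks and 5.46% with at least 20 reads. The count was 3, of which 2 were receptors, with peaks at or above the median score. It was also 3, with 2 receptors, in the setting added later, when a peak counted only for its nearest gene. That was 9.68% of members, against 7.08% of all genes at or above the median score and 10.1% by nearest gene. The share of members thus lay above that of all genes in some settings and below it in others. The ligand count was 1 in all 8 alternatives. Receptors minus ligands reversed to -4.09 points without flanks and with peaks of at least 20 reads, because 3 of the 4 receptors rested on flank peaks and 3 on peaks under 20 reads. Requiring 20 reads also lowered the count over all protein-coding genes from 2302 to 1195 and raised the members' median from 21 to 33.5 reads. Of the 7 peaks, 5 held fewer than 20 reads, as did 3893 of all 6018 peaks, so their relative counting error is large. No paired analysis was possible because there is 1 ChIP library and no replicate.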

Other observations

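The peak nearest to Tnfrsf17, 168732 bp away on chromosome 16, held 140 reads in 626 bp, where the median peak held 14 reads in 643 bp. Members were unevenly spread over the genome. Chromosome 4 held 9 of the 31, of which 2 had a peak, and chromosome 14 held 3, of which 2 did (Tnfsf11 and Tnfrsf19). How many of all genes lie on these chromosomes, or have a peak there, is not given here. Nothing is therefore read from these counts.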
